A study of Mus musculus with 36 samples.

Results

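Tnf, the interleukin genes Il1a, Il1b, Il6, Il10, Il12b, Il18 and Il23a, the receptor antagonist gene Il1rn and the oncostatin M gene Osm were examined in alveolar macrophages (AΦ) and monocytes sorted from mouse lung. They were taken by gene symbol from a table of FPKM values (fragments per kilobase of transcript, scaled to the mapped fragments of the library), and each of the 10 symbols matched 1 of the 27562 genes in the table. The table held 36 libraries in 12 groups of 3, numbered 0, 1 and 2 in each group. Mice were drawn for sequencing by exposure and time, so that libraries of different cell populations can come from the same mouse, and which ones do is not given in the sources used here.

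All mice were male lung-shielded chimeras. C57BL/6J hosts carrying CD45.2, the host allele of Ptprc, were irradiated as young adults with the chest behind lead, treated with busulfan and given bone marrow of B6.SJL-Ptprca Pepcb/BoyJ donors carrying CD45.1, so that control and exposed groups alike had this conditioning. They then breathed filtered air (FA) or concentrated ambient PM2.5 for 4-weeks or 32-weeks. The 4-weeks groups were tissue-resident AΦ (TR-AΦ, CD45.2) and CD45.2 monocytes of FA mice and of PM2.5 mice. The 32-weeks groups were TR-AΦ, bone marrow-derived AΦ (BM-AΦ, CD45.1), CD45.2 monocytes and CD45.1 monocytes, again of FA mice and of PM2.5 mice. Sample titles number the 32-weeks monocytes 1 and 2, and their origin was read from the key given for AΦ. BM-AΦ of 4-weeks were not analysed here. CD45.2 monocytes are cells of host origin present after conditioning. The 4-weeks and 32-weeks mice also differed in age and in length of exposure. Whether cells of both times were dissociated, sorted and sequenced together is not given in the sources used here. Age, exposure length and handling therefore cannot be told apart. AΦ were gated as CD64+ CD11chi CD11blo cells and monocytes as Ly6G- MHCII- CD64lo CD11bhi cells after enzymatic dissociation of the lung, a step that all groups shared.

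Tumour necrosis factor and the interleukins are secreted signals by which macrophages and monocytes raise or restrain inflammation. IL-1α and IL-1β bind the same receptor, IL-1 receptor antagonist occupies that receptor without signalling, and the precursors of IL-1β and IL-18 are cleaved by caspase-1 in the inflammasome. IL-6 and oncostatin M signal through gp130 and STAT3, IL-10 restrains cytokine production through STAT3, and IL-23 is made of the Il23a product p19 joined to p40, the Il12b product that IL-12 also contains. Several of these genes are transcribed soon after a stimulus and their mRNA decays fast.

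The libraries matched their labelled cell type. The summed FPKM of the 9 AΦ marker genes in the table ranged from 5768 to 13227 in the 18 AΦ libraries and from 274 to 1578 in the 18 monocyte libraries, and that of 10 monocyte markers from 93.5 to 563 in AΦ and from 1441 to 4497 in monocytes. FPKM are scaled for depth and transcript length but carry no read counts, so the depth behind a value is unknown. The sum over all genes ran from 1839577 to 3339020 FPKM per library. Neutrophil markers (11 genes, S100a9 among them) summed to 397 and 1143 FPKM in library 2 of the FA and PM2.5 monocytes of 4-weeks, against 44.8 to 79.5 in the other 4 monocyte libraries of that time, and to 28.7 and 59.3 against 5.12 to 9.94 in TR-AΦ of 4-weeks. Ly6g, a defining neutrophil gene, was listed at 0 in 11 of the 12 libraries of 4-weeks. Since these are sorted bulk samples, fewer cells that express a gene and less RNA per cell cannot be told apart.

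The members differed most in level between cell types and between times, and these differences are described below by the role of each gene. By the GENCODE annotation of mm10, Tnf lay at chr17:35199381-35202007 on the minus strand, and Il1a (chr2:129299610-129309972) and Il1b (chr2:129364570-129371139) were neighbours on the minus strand of chromosome 2. Il6 lay at chr5:30013114-30019981, Il10 at chr1:131019845-131024974 and Osm at chr11:4236420-4241026, all on the plus strand. Il10 was 7.04 Mb from Ptprc, a locus at which hosts and donors differ. The donor strain name also gives an allele of Pepc. Whether Il10 itself differed in sequence between hosts and donors was not tested. RefSeq promoters (build GRCm38.p6) were found for 7 of the 10 members, all but Il10, Il23a and Osm. The 250 bases before the start are shown for Tnf, Il1b and Il6, which fell together from 4-weeks to 32-weeks when both exposures were averaged, and for Il18, which did not, each read 5′ to 3′ on the strand of its gene. The Il18 locus in the table began at position 50575273 of chromosome 9, downstream of the RefSeq start, so the window shown for Il18 does not adjoin the locus as measured. The Il1b locus in the table reached position 129375748 of chromosome 2, so the window shown for Il1b lies within the locus as measured. The windows are chr17:35202008-35202257 (minus), chr2:129371140-129371389 (minus), chr5:30012864-30013113 (plus) and chr9:50554450-50554699 (plus), and capitals mark matches to the motifs named after the sequences.
Tnf: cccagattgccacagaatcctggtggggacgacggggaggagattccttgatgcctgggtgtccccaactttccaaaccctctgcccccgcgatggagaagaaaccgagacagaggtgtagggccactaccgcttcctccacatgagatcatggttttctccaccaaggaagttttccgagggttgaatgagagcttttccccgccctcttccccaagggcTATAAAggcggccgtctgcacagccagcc
Il1b: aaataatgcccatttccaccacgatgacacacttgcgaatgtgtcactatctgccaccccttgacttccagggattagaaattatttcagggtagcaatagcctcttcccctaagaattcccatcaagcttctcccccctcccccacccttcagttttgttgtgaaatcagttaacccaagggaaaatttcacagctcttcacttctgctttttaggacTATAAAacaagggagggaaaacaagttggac
Il6: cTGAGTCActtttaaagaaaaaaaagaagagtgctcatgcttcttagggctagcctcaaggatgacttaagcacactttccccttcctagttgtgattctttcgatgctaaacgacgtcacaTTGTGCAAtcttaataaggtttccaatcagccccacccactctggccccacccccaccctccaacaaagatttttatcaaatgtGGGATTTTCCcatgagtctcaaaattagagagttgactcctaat
Il18: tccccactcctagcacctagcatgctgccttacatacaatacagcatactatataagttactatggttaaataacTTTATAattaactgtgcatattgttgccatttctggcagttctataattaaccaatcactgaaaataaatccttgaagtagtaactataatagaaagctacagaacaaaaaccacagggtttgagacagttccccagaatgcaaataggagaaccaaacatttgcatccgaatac
Motifs were searched on both strands. TATAAA was found at position -29 from the start of Tnf and -31 from that of Il1b and on the other strand at -175 from that of Il18, and it occurred in 12.4% of 32851 promoters of this length. The Il6 window held AP-1 (TGANTCA, in 6.75% of promoters), C/EBP (TTGCNNAA, in 9.56%) and kappa B (in 7.25%) at positions -249, -128 and -44, with no overlap between them. The letters of the AP-1, C/EBP and kappa B motifs as searched were not in the windows of Tnf, Il1b and Il18. Il1a also fell from 4-weeks to 32-weeks in TR-AΦ with the exposures averaged. Its window, which is not shown, held TATAAA at position -32 and AP-1 at -12. A match describes the letters of a window and is not evidence of binding.

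**Figure D1:**
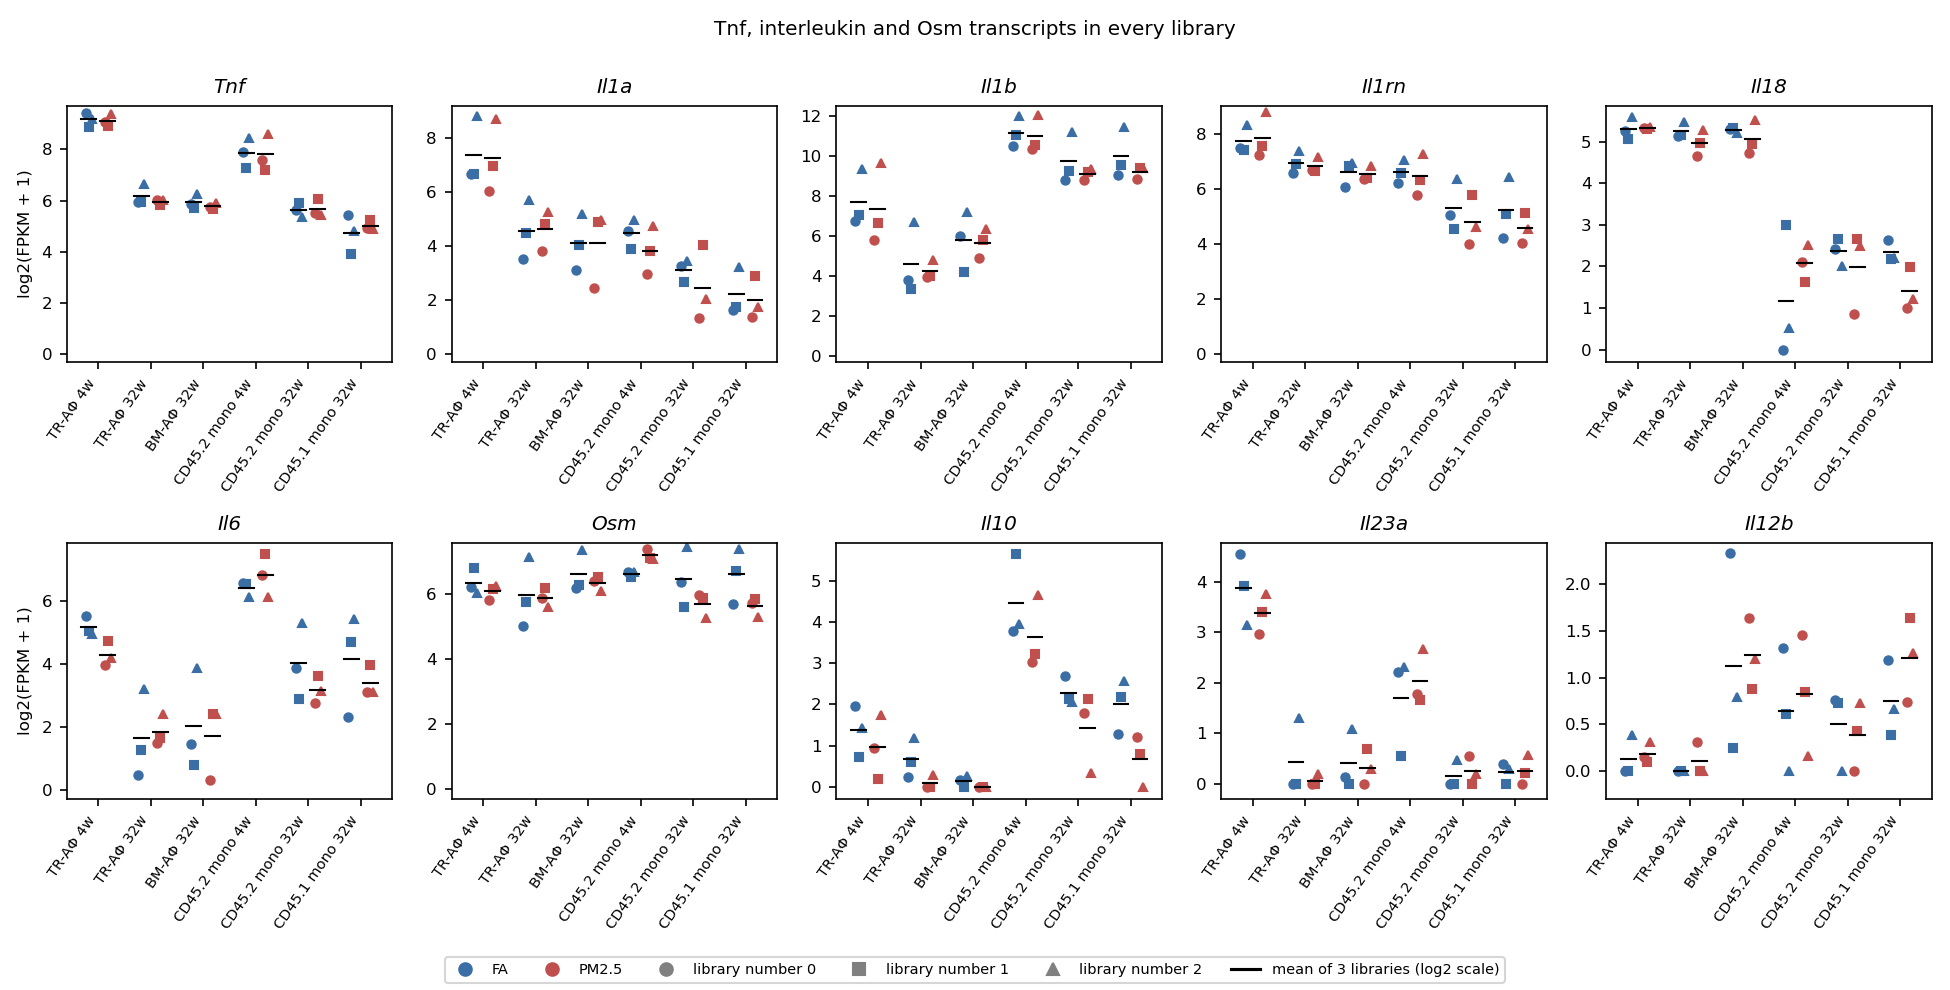
Level of the 10 members in every library, as log2(FPKM + 1), by cell population, with FA in blue, PM2.5 in red, the marker shape giving the library number and the bar the mean of 3 libraries. Tnf stands highest in TR-AΦ of 4-weeks (469 to 685 FPKM), Il1b in monocytes (439 to 4251 FPKM) and Il18 in AΦ (24.4 to 46.8 FPKM).

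Tnf, the proinflammatory cytokine that activates NF-κB through its receptors, was highest in TR-AΦ of 4-weeks. Its FPKM there was 685, 469 and 585 in the FA libraries (580 ± 108, SD, n = 3) and 531, 476 and 659 in the PM2.5 libraries (556 ± 93.8), which placed its mean 319th among all genes of these cells. All 6 libraries were above every other library of the series. In TR-AΦ of 32-weeks Tnf was 60.0, 60.8 and 99.6 in FA mice (73.5 ± 22.6) and 64.0, 55.2 and 64.8 in PM2.5 mice (61.3 ± 5.33). The mean FPKM at 4-weeks was 8.42 times that at 32-weeks, and no library of one time reached the other. BM-AΦ of 32-weeks held 56.7, 51.6 and 75.3 in FA mice (61.2 ± 12.5) and 53.2, 50.7 and 59.6 in PM2.5 mice (54.5 ± 4.59), within the spread of TR-AΦ of the same time.

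In CD45.2 monocytes of 4-weeks Tnf was 237, 155 and 345 FPKM in FA mice (246 ± 95.2) and 192, 147 and 387 in PM2.5 mice (242 ± 128), below every TR-AΦ library of that time. At 32-weeks CD45.2 monocytes held 48.5, 59.7 and 40.0 in FA mice (49.4 ± 9.92) and 45.0, 66.0 and 42.0 in PM2.5 mice (51 ± 13.1), and CD45.1 monocytes 42.4, 14.2 and 26.9 (27.8 ± 14.1) and 29.6, 36.9 and 29.1 (31.8 ± 4.37). Ordered by mean, neighbouring groups were free of overlap at 3 of 11 steps. These steps were from TR-AΦ of 4-weeks to monocytes of 4-weeks, from these monocytes to TR-AΦ of 32-weeks, and from CD45.2 monocytes of FA mice to CD45.1 monocytes of PM2.5 mice at 32-weeks. CD45.1 monocytes of FA mice overlapped with CD45.2 monocytes. The other 8 pairs of neighbours overlapped.

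Il1b was the member with the highest level in monocytes. FPKM in CD45.2 monocytes of 4-weeks was 1421, 2066 and 4032 in FA mice and 1276, 1466 and 4251 in PM2.5 mice, and the mean ranked 147th of all genes. At 32-weeks it was 439, 598 and 2347 (FA) and 445, 575 and 645 (PM2.5) in CD45.2 monocytes, and 526, 749 and 2725 (FA) and 450, 675 and 660 (PM2.5) in CD45.1 monocytes. Library 2 was the highest in 5 of these 6 groups and stood far above the others in 4 of them. In TR-AΦ Il1b was 104, 132 and 636 (FA) and 54.3, 97.5 and 805 (PM2.5) at 4-weeks, and 13, 9.14 and 102 (FA) and 14.4, 15 and 26.5 (PM2.5) at 32-weeks. BM-AΦ held 61.8, 17.2 and 147 (FA) and 28.6, 54.1 and 79.1 (PM2.5). The lowest monocyte library of 32-weeks thus exceeded the highest AΦ library of that time.

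Il1a, which encodes the IL-1 form that acts without caspase-1 cleavage, had the opposite order of cell types. FPKM in TR-AΦ of 4-weeks was 101, 103 and 456 in FA mice (220 ± 205) and 65.9, 126 and 421 in PM2.5 mice (204 ± 190), against 6.78 to 30.8 in CD45.2 monocytes of 4-weeks. The SD was almost as large as the mean because library 2 was the highest in each group. At 32-weeks Il1a was 10.6, 21.7 and 51 (FA) and 13.1, 27.3 and 37.5 (PM2.5) in TR-AΦ and 7.66, 15.4 and 36.1 (FA) and 4.47, 28.8 and 30.8 (PM2.5) in BM-AΦ. Monocytes of 32-weeks ranged from 1.5 to 15.5, so the cell types overlapped at that time.

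Il1rn, which encodes the secreted competitor of IL-1, was 179, 169 and 318 FPKM (FA) and 147, 184 and 436 (PM2.5) in TR-AΦ of 4-weeks. It ranged from 92.8 to 165 in TR-AΦ and from 66.3 to 121 in BM-AΦ of 32-weeks. Monocytes held 53.5 to 151 at 4-weeks and 15 to 85.5 at 32-weeks. The quotient of Il1rn FPKM over the sum of Il1a and Il1b FPKM, whose terms are all scaled per length, had a median of 0.771 in TR-AΦ of 4-weeks (range 0.291 to 1.23, n = 6), 3.03 in TR-AΦ of 32-weeks (1.08 to 3.93) and 1.01 in BM-AΦ (0.663 to 3.41). In monocytes it was 0.0432 at 4-weeks (0.0325 to 0.0537), 0.0363 in CD45.2 cells of 32-weeks (0.0336 to 0.0905) and 0.0338 in CD45.1 cells (0.0313 to 0.0489). Every AΦ library therefore had a higher quotient than every monocyte library.

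**Figure D2:**
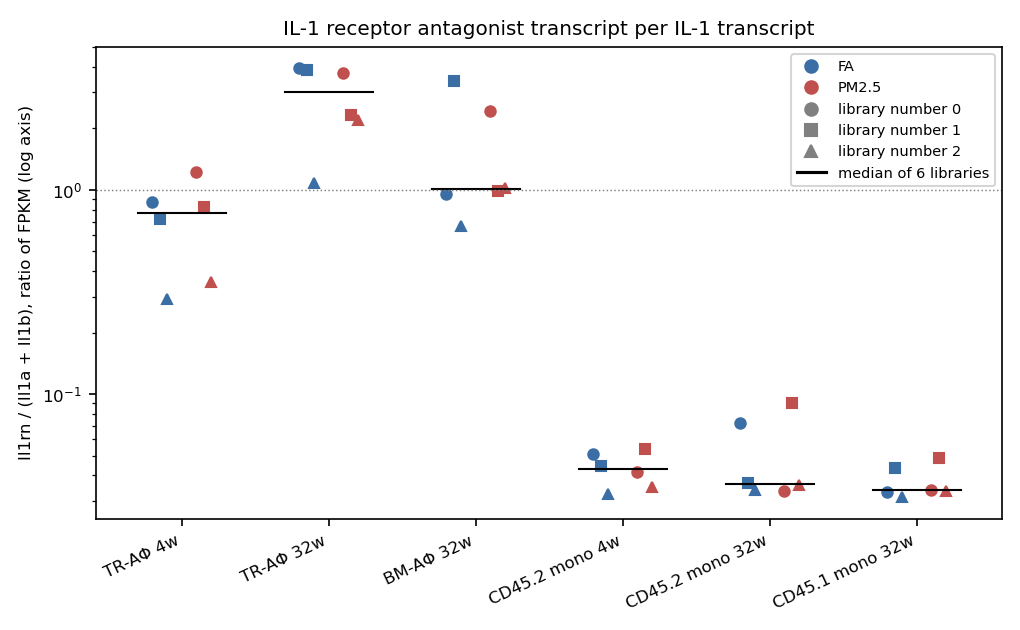
Quotient of Il1rn FPKM over summed Il1a and Il1b FPKM on a log axis for each of the 36 libraries, with a bar at the median of 6 libraries per cell population. The 18 AΦ libraries sit between 0.291 and 3.93 and the 18 monocyte libraries between 0.0313 and 0.0905.

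Library 2 was often the highest for the IL-1 genes. It was the highest of its 3 libraries in 10 of the 12 groups for Il1a, in 11 for Il1b and in 10 for Il1rn, including all 6 AΦ groups for each. It was also the highest in 12 of 12 groups for the sum of receptors and binding proteins, in 11 for that of AΦ markers and in 10 for that of inflammasome genes, so this was not particular to IL-1. At 4-weeks these libraries were those with more neutrophil marker RNA, whereas at 32-weeks neutrophil markers summed to at most 12.9 FPKM in AΦ. Red cell markers summed to 39.4 to 57.3 FPKM in the AΦ libraries numbered 2 at 32-weeks and to 0 to 1.31 in all libraries numbered 2 at 4-weeks. The part of these RNAs in the IL-1 values was not tested.

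Among the gp130 ligands, Il6 was expressed in both cell types at 4-weeks and stood higher in monocytes. FPKM there was 94.5, 92.7 and 69.3 in FA mice and 113, 181 and 68.6 in PM2.5 mice, against 45.3, 31.8 and 30.2 (FA) and 14.7, 25.3 and 17.3 (PM2.5) in TR-AΦ, with no overlap between the cell types. At 32-weeks TR-AΦ held 0.383, 1.41 and 8.11 (FA) and 1.77, 2.10 and 4.29 (PM2.5) and CD45.2 monocytes 13.6, 6.30 and 38.7 (FA) and 5.80, 11.4 and 7.8 (PM2.5). BM-AΦ ranged from 0.236 to 13.6 and CD45.1 monocytes from 4.01 to 41.9. All 6 libraries of 4-weeks were above all 6 of 32-weeks in each CD45.2 cell type.

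Osm was the most even member, with 31.1 to 175 FPKM over all 36 libraries and no value at 0. It ranged from 55.8 to 110 in TR-AΦ of 4-weeks, from 31.1 to 139 in TR-AΦ of 32-weeks and from 67.5 to 164 in BM-AΦ. Monocytes held 90.5 to 165 at 4-weeks and 37.7 to 175 at 32-weeks, so that cell types and times overlapped.

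Il10, the anti-inflammatory member, was expressed in monocytes and near 0 in AΦ. FPKM in CD45.2 monocytes of 4-weeks was 12.7, 49.4 and 14.6 (FA) and 7.16, 8.40 and 24.5 (PM2.5), and at 32-weeks 5.41, 3.39 and 3.15 (FA) and 2.47, 3.37 and 0.255 (PM2.5). The 6 values of 4-weeks were all above the 6 of 32-weeks. CD45.1 monocytes held 1.43, 3.56 and 4.93 in FA mice and 1.31, 0.741 and 0 in PM2.5 mice. In AΦ the highest value was 2.90, in a 4-weeks library, and Il10 was listed at 0 in 2 of 6 TR-AΦ and 4 of 6 BM-AΦ libraries of 32-weeks.

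Il18, whose product induces interferon-γ, was an AΦ gene at every time and in cells of either origin. It ranged from 24.4 to 46.8 FPKM in the 18 AΦ libraries, with medians of 38.7 in TR-AΦ of 4-weeks, 34.4 in TR-AΦ of 32-weeks and 37.1 in BM-AΦ. In the 18 monocyte libraries it ranged from 0 to 6.96. The groups of AΦ and of monocytes did not overlap anywhere.

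The subunits of IL-23 did not share a pattern. Il23a in TR-AΦ of 4-weeks was 22.4, 14.2 and 7.8 FPKM in FA mice and 6.84, 9.53 and 12.6 in PM2.5 mice, and 4 of the 6 TR-AΦ libraries of 32-weeks were listed at 0, with 1.46 and 0.139 in the others. In CD45.2 monocytes it ranged from 0.468 to 5.40 at 4-weeks and from 0 to 0.456 at 32-weeks, and in BM-AΦ from 0 to 1.11. Il12b was low throughout, at 0 to 0.304 FPKM in TR-AΦ of 4-weeks and listed at 0 in 5 of 6 TR-AΦ libraries of 32-weeks. It was above 0 in all 6 BM-AΦ libraries, at 4.03, 0.183 and 0.727 (FA) and 2.12, 0.836 and 1.30 (PM2.5). Monocytes held at most 2.11.

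Differences between groups were tested with limma on log2(FPKM + 1) over all genes whose mean FPKM reached 1, and a gene was called at an adjusted p under 0.05 (Benjamini-Hochberg). On this scale changes of genes with low FPKM are understated. Il12b was below the minimum everywhere and Il10 was below it in AΦ, so 9 members were tested within monocytes and between cell types and 8 within AΦ. Il23a passed the minimum in each cell type through its 4-weeks libraries alone. Across cell types Il23a passed it through TR-AΦ of 4-weeks alone and Il10 through its monocyte libraries alone. Their inclusion already required a difference between those groups, so their tests there are not read as support. Counts over time are given with and without Il23a, and counts between cell types with and without Il10 only. P-values measure only the spread between these libraries.

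AΦ and monocytes were compared with FA and PM2.5 given equal weight. At 4-weeks 8 of the 9 tested members were called among CD45.2 cells, or 7 of 8 without Il10, where 48.2% of all 13307 genes were called. Of these 5 were higher in TR-AΦ (22.6% of all genes), led by Il18 (log2 difference 3.68 ± 0.34, SE, 12.8-fold, adjusted p = 7.40e-10) and Il1a (3.17 ± 0.58, adjusted p = 4.32e-05). Tnf (1.30, adjusted p = 3.99e-05) and Il1rn (1.26, adjusted p = 0.00642) followed. Il23a was also among the 5, and its value of 1.76 is a description, since it passed the minimum through TR-AΦ of 4-weeks. The other 3 were lower (25.5% of all genes), namely Il1b (-3.53 ± 0.67, 11.6-fold, adjusted p = 6.94e-05), Il6 (-1.88, adjusted p = 0.00536) and Il10, whose value of -2.89 is a description for the reason given. Osm differed by -0.69 (95% interval -1.34 to -0.05, adjusted p = 0.0723). Groups did not overlap for 7 of the 9 members, or 6 of 8 without Il10, against 29.8% of all genes. Il23a is in these counts and in those of called members.

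At 32-weeks 6 of 9 members were called among CD45.2 cells (47.3% of all genes), 3 of them higher (23.6%) and 3 lower (23.7%) in AΦ, and 7 of 9 among CD45.1 cells (50.9%), 4 of them higher (27.1%) and 3 lower (23.8%). Without Il10 these counts were 5 of 8 and 6 of 8. Groups did not overlap for 3 of 9 members in CD45.2 cells (26.9% of all genes) and 3 of 9 in CD45.1 cells (30.8%). Il18 remained higher in AΦ, by 2.94 in CD45.2 (adjusted p = 5.29e-08) and 3.3 in CD45.1 cells (adjusted p = 6.69e-09), as did Il1a (1.81 and 2.01) and Il1rn (1.84 and 1.66). Il1b was lower in AΦ most of all members in CD45.2 cells, by -4.99 ± 0.67 (31.8-fold, adjusted p = 4.95e-07), and by -3.87 in CD45.1 cells (adjusted p = 2.12e-05). Il6 (-1.86 and -1.90) was lower as well, and Il10 gave -1.47 and -1.27. Tnf was called in CD45.1 cells (0.99, adjusted p = 0.000913) and not in CD45.2 cells (0.41, adjusted p = 0.153), and the difference between these values was itself not called (0.58, 95% interval -0.11 to 1.26, adjusted p = 0.628). Il23a differed by 0.05 in CD45.2 and 0.12 in CD45.1 cells, and Osm by -0.17 and 0.36. With cell type by origin tested as an interaction, 0 of 9 members were called by limma (1.08% of all genes), and 0 had an unadjusted p under 0.05.

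**Figure D3:**
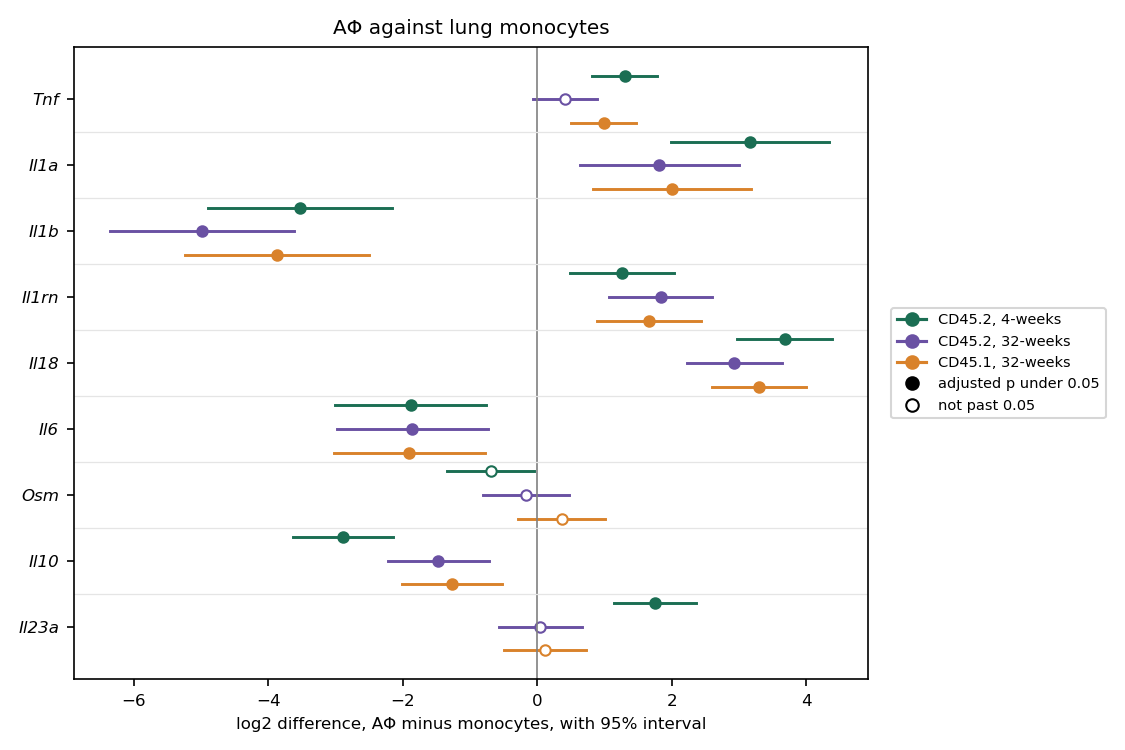
Log2 difference of AΦ against monocytes for each tested member, with its 95% interval, in CD45.2 cells of 4-weeks and in CD45.2 and CD45.1 cells of 32-weeks. Filled points have an adjusted p under 0.05, and Il1b lies between -4.99 and -3.53 while Il18 lies between 2.94 and 3.68 in the 3 comparisons.

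Genes that serve these cytokines were compared in the same way, from lists chosen with earlier results of these data known. The share of all genes called at 4-weeks was 22.6% higher and 25.5% lower. Of 14 tested receptors and binding proteins, 2 were higher and 8 lower in TR-AΦ than in monocytes at 4-weeks (median log2 difference -0.86, against -0.02 for all genes). The IL-36 receptor Il1rl2 was higher by 2.70, and the decoy receptor Il1r2 and the IL-10 receptor Il10ra were lower by -2.33 and -1.79. Of 10 inflammasome and processing genes 0 were higher and 5 lower (median -0.44), among them the pore former Gsdmd (-1.31) and the adaptor Pycard (-0.80). Of 18 signal transduction genes 1 was higher and 12 lower (median -0.66), the feedback inhibitor Socs3 by -2.99. Of 9 genes of cytokine mRNA decay 0 were higher and 6 lower (median -0.61), including Zfp36, the binder of AU-rich elements in Tnf mRNA (-1.34). Of 8 tested other cytokines 0 were higher and 6 lower (median -1.02), with Ebi3 at -4.20. At 32-weeks, where 23.6% and 27.1% of all genes were called higher and 23.7% and 23.8% lower in CD45.2 and CD45.1 cells, 8 of the 14 receptors were lower in cells of either origin and 2 and 4 were higher. Inflammasome genes had 4 of 10 lower in each (0 and 1 higher), signal transduction genes 10 of 18 in each (1 higher in each), mRNA decay genes 3 and 5 of 9 (1 and 0 higher) and the other cytokines 4 of 8 in each (0 higher).

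The change between 4-weeks and 32-weeks was tested in TR-AΦ and CD45.2 monocytes, separately in FA and in PM2.5 mice. In TR-AΦ 2 of 8 tested members were called in FA mice, where 0.782% of all genes were called and 0.632% were called lower, and 2 of 8 in PM2.5 mice (1.05% called, 0.782% lower). In either exposure these were Tnf and Il23a, and without Il23a the count was 1 of 7. Tnf fell by 2.99 ± 0.21 on the log2 scale in FA mice (7.92-fold, adjusted p = 6.62e-06) and by 3.15 ± 0.21 in PM2.5 mice (8.88-fold, adjusted p = 2.17e-06). Il23a gave -3.44 ± 0.42 (adjusted p = 0.00140) and -3.31 ± 0.42 (adjusted p = 0.00120), values that the minimum FPKM bears on.

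Il6, Il1a and Il1b had changes of similar size in TR-AΦ with a wider spread. Il6 gave -3.54 (95% interval -5.23 to -1.85, adjusted p = 0.0572) in FA and -2.46 (adjusted p = 0.156) in PM2.5 mice. Il1a gave -2.82 (adjusted p = 0.192) and -2.62 (adjusted p = 0.178), and Il1b -3.09 (adjusted p = 0.253) and -3.11 (adjusted p = 0.192). Without library 2 of the 32-weeks FA mice Il6 was called (-4.31, adjusted p = 0.0249). For all 3 genes the libraries of 4-weeks lay above those of 32-weeks in both exposures. Il1rn gave -0.79 and -1.01, Osm -0.39 and -0.19 and Il18 -0.04 and -0.35, none of them called. The groups of 4-weeks and 32-weeks did not overlap for 5 of 7 members in FA mice (15.6% of all genes) and 6 of 7 in PM2.5 mice (18.3%), Il23a left aside. The median change of these 7 members was -2.82 in FA and -2.46 in PM2.5 mice, where that of all genes was 0.01 and 0.03. With FA and PM2.5 averaged, 6 mice against 6, a comparison added after the values were seen, 5 of 8 members were called, or 4 of 7 without Il23a (5.91% of all genes). These were Tnf (-3.07, adjusted p = 4.28e-08), Il6 (-3.00, adjusted p = 0.00714), Il1a (-2.72, adjusted p = 0.0224) and Il1b (-3.10, adjusted p = 0.0316), besides Il23a (-3.38).

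In CD45.2 monocytes 3 of 9 members were called in FA mice (7.21% of all genes) and 3 of 9 in PM2.5 mice (2.42%), each of them lower at 32-weeks, or 2 of 8 in each without Il23a, where 4.08% and 0.747% of all genes were called lower. Tnf fell by 2.23 ± 0.41 in FA mice (4.71-fold, adjusted p = 0.00545) and by 2.13 ± 0.41 in PM2.5 mice (4.37-fold, adjusted p = 0.0175). Il23a gave -1.54 (adjusted p = 0.0490) and -1.79 (adjusted p = 0.0466), on which the minimum FPKM bears as it does in AΦ. Il10 was called in FA mice (-2.18, adjusted p = 0.0403) and missed the threshold in PM2.5 mice (-2.23, adjusted p = 0.0646), whereas Il6 was called in PM2.5 mice (-3.64 ± 0.70, 12.5-fold, adjusted p = 0.0175) and missed it in FA mice (-2.40, adjusted p = 0.0513). Il1b gave -1.42 and -1.86, Il1rn -1.30 and -1.66, Il1a -1.36 and -1.38 and Osm -0.15 and -1.48, none of them called. With Il23a left aside the median change of 8 members was -1.39 in FA and -1.76 in PM2.5 mice, against -0.05 and -0.03 for all genes. Groups did not overlap for 4 of these 8 in FA (24.5% of all genes) and 6 of 8 in PM2.5 mice (20.4%).

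Single libraries decided most of the monocyte calls. In FA mice the Tnf call held without each library in turn, the Il10 call was lost without any of libraries 1 and 2 of 4-weeks or libraries 0, 1 and 2 of 32-weeks (adjusted p from 0.0717 to 0.169), and the Il23a call was lost without any library of 32-weeks (0.0598 to 0.157). Il6 was called in FA mice without library 2 of 32-weeks (-3.05, adjusted p = 0.0229), and so was Il18 without library 1 of 4-weeks (2.10, adjusted p = 0.0310). In PM2.5 mice Tnf lost its call without library 2 of 4-weeks (-1.73, adjusted p = 0.0780) or of 32-weeks (-2.00, adjusted p = 0.0506) and Il6 without library 1 of 4-weeks (-3.30, adjusted p = 0.0659) or of 32-weeks (-3.87, adjusted p = 0.0540). Il23a in PM2.5 mice lost its call without each library that left it above the minimum (0.0634 to 0.191).

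Library 2 of 4-weeks had the most neutrophil marker RNA among monocytes. Without the libraries numbered 2, left out after the values were seen, Tnf gave -1.81 (adjusted p = 0.0834) in FA and -1.60 (adjusted p = 0.198) in PM2.5 mice, and Il23a fell below the minimum FPKM. The part of neutrophil RNA in these changes was not tested. With FA and PM2.5 averaged over all libraries, 6 of 9 members, or 5 of 8 without Il23a, were called in monocytes (14.9% of all genes), which were Tnf (-2.18, adjusted p = 0.000332), Il6 (-3.02), Il23a (-1.66), Il10 (-2.20), Il1rn (-1.48, adjusted p = 0.0334) and Il1b (-1.64, adjusted p = 0.0346).

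**Figure D4:**
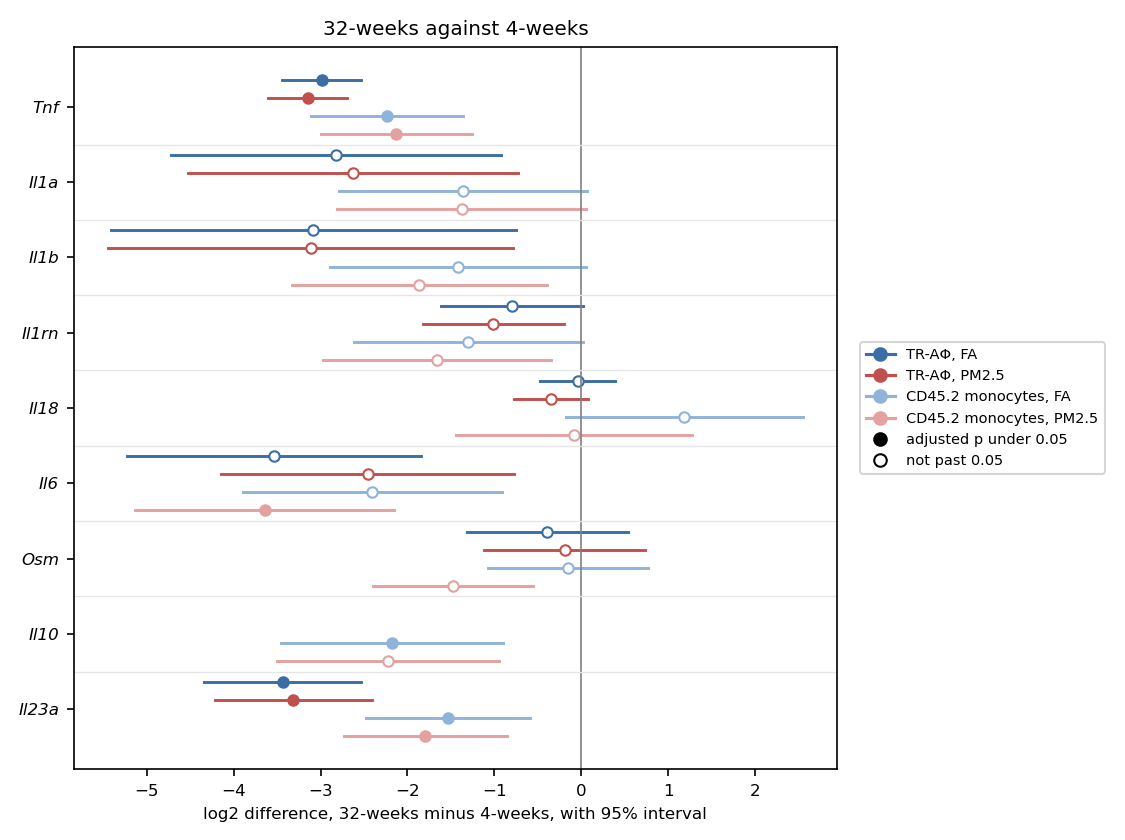
Log2 change of each tested member from 4-weeks to 32-weeks with its 95% interval, in TR-AΦ and CD45.2 monocytes of FA and of PM2.5 mice. Filled points have an adjusted p under 0.05, and Tnf lies at -2.99 and -3.15 in TR-AΦ and at -2.23 and -2.13 in monocytes.

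Whether the change with time differed between TR-AΦ and CD45.2 monocytes was tested as an interaction, in which 1 of 9 members was called (7.88% of all genes) and 0 of 8 without it. This was Il23a, at -1.71 ± 0.42 for TR-AΦ against monocytes (adjusted p = 0.0105). Its mean was 12.2 FPKM at 4-weeks and 0.266 at 32-weeks in TR-AΦ and 3.01 and 0.165 in monocytes, so both were near 0 at 32-weeks and the value mostly restates the difference in level at 4-weeks. With a pseudocount of 0.1 it was not called (-2.30, adjusted p = 0.216). For Tnf the difference of the changes was -0.89 (95% interval -1.57 to -0.21, adjusted p = 0.108) and for Il10 1.42 (adjusted p = 0.0910). Without library 2 of the PM2.5 monocytes of 4-weeks the Tnf difference was called (-1.09, adjusted p = 0.0314). These tests use the libraries of the preceding comparisons and are not independent of them.

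Of all genes, 0.632% and 0.782% were called lower at 32-weeks in TR-AΦ of FA and of PM2.5 mice. In monocytes these shares were 4.08% and 0.747%. Of the lists that serve the cytokines, the inflammasome list had 0 genes called lower in FA monocytes. It had 1 of 10 called lower in TR-AΦ of FA mice, in TR-AΦ of PM2.5 mice and in PM2.5 monocytes. That gene was the inflammasome sensor Nlrp3 each time, which fell by 1.35 (adjusted p = 0.00435), 1.66 (adjusted p = 0.000514) and 1.90 (adjusted p = 0.00418). Of 13 immediate early genes 4 were lower in TR-AΦ of FA and 4 in TR-AΦ of PM2.5 mice, with 0 higher, among them Nfkbiz (-2.95 and -3.60), the partner of NF-κB at Il6, and Egr1 (-2.34 and -3.19). In monocytes 3 were lower in FA and 2 in PM2.5 mice, Nfkbiz by -1.32 and -1.61. The part of cell handling in these changes was not tested. Of 12 tested receptors and binding proteins 0 were called in TR-AΦ of either exposure. Counts over time for receptors in monocytes, and for signal transduction and mRNA decay genes, are not described here. The summed FPKM of mRNA decay genes had medians of 1671 and 1155 in TR-AΦ of 4-weeks and 32-weeks. In CD45.2 monocytes these medians were 3652 and 2648. Of 6 tested other cytokines 0 were called in TR-AΦ of FA mice and Lif alone in PM2.5 mice (-1.27), and Lif fell in monocytes by 2.44 and 2.52.

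BM-AΦ and TR-AΦ of 32-weeks were compared over 6 libraries each. By limma 0 of 8 tested members were called (0.316% of all genes), 0 had an unadjusted p under 0.05, and in 0 were the groups free of overlap (1.37% of all genes). Tnf differed by -0.20 (95% interval -0.52 to 0.12) and Il18 by 0.06 (-0.25 to 0.36). The intervals were wider for Il1b (1.30, -0.35 to 2.95), Il1a (-0.49, -1.83 to 0.85) and Osm (0.55, -0.11 to 1.21). Il12b, tested only with no minimum FPKM, was higher in BM-AΦ by 1.13 ± 0.27 with an adjusted p of 0.136. The sum of 7 dendritic cell markers, Ccr7, Xcr1 and Flt3 among them, was also higher there, at 9.08 to 31.0 FPKM in BM-AΦ and 1.46 to 4.86 in TR-AΦ of 32-weeks. The part of dendritic cell RNA in the Il12b values was not tested.

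Between CD45.1 and CD45.2 monocytes of 32-weeks 0 of 9 members were called by limma (0.669% of all genes), 0 were free of overlap (1.18%), and 1 had an unadjusted p under 0.05. This was Tnf, lower in CD45.1 cells by -0.78 (95% interval -1.40 to -0.16, adjusted p = 0.344). Il1b differed by 0.18 (-0.86 to 1.22) and Il10 by -0.51 (-1.42 to 0.39).

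PM2.5 was compared with FA in each of the 6 populations, 3 mice against 3. Over the 51 tests of members 0 were called by limma, and 2 had an unadjusted p under 0.05, both in CD45.1 monocytes, where Il10 differed by -1.34 and Osm by -0.99 (adjusted p = 0.946 for each). The share of all genes called was 0.0079% in TR-AΦ of 4-weeks, 0.00778% in monocytes of 4-weeks, 0.0158% in BM-AΦ and 0% in the other 3 populations. The differences of the members ranged from -1.34 to 0.90 and their 95% intervals reached from -2.70 to 2.27, so that changes of up to 4.81-fold upward or to 0.154 of the FA level were within the intervals. Over the 6 comparisons the bounds lay closest together for Tnf, whose differences ran from -0.22 to 0.31 with bounds of -0.94 and 1.18. Il1b was below 0 in 6 of 6 comparisons, from -0.81 to -0.12, with bounds of -2.70 and 2.21. Its mean FPKM in TR-AΦ of 4-weeks went the other way, at 291 in FA and 319 in PM2.5 mice. Comparisons of one time can share mice, so these signs need not be independent.

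FA and PM2.5 libraries did not overlap in 4 of the 51 tests, and 0 of these were in TR-AΦ (5.98% of all genes), BM-AΦ (6.44%) or CD45.2 monocytes (6.39%) of 32-weeks. In TR-AΦ of 4-weeks Il6 was 30.2 to 45.3 FPKM in FA and 14.7 to 25.3 in PM2.5 mice, where 5.82% of all genes had no overlap. In monocytes of 4-weeks Osm was 90.5 to 102 in FA and 133 to 165 in PM2.5 mice (6.57% of all genes). The other two were Il10 and Il18 in CD45.1 monocytes (8.89%). No member was called for an exposure effect that differed with time or with origin in 34 tests by limma, of which 1 had an unadjusted p under 0.05, with differences from -1.33 to 1.08. At most 0.0158% of all genes were called in these tests.

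**Figure D5:**
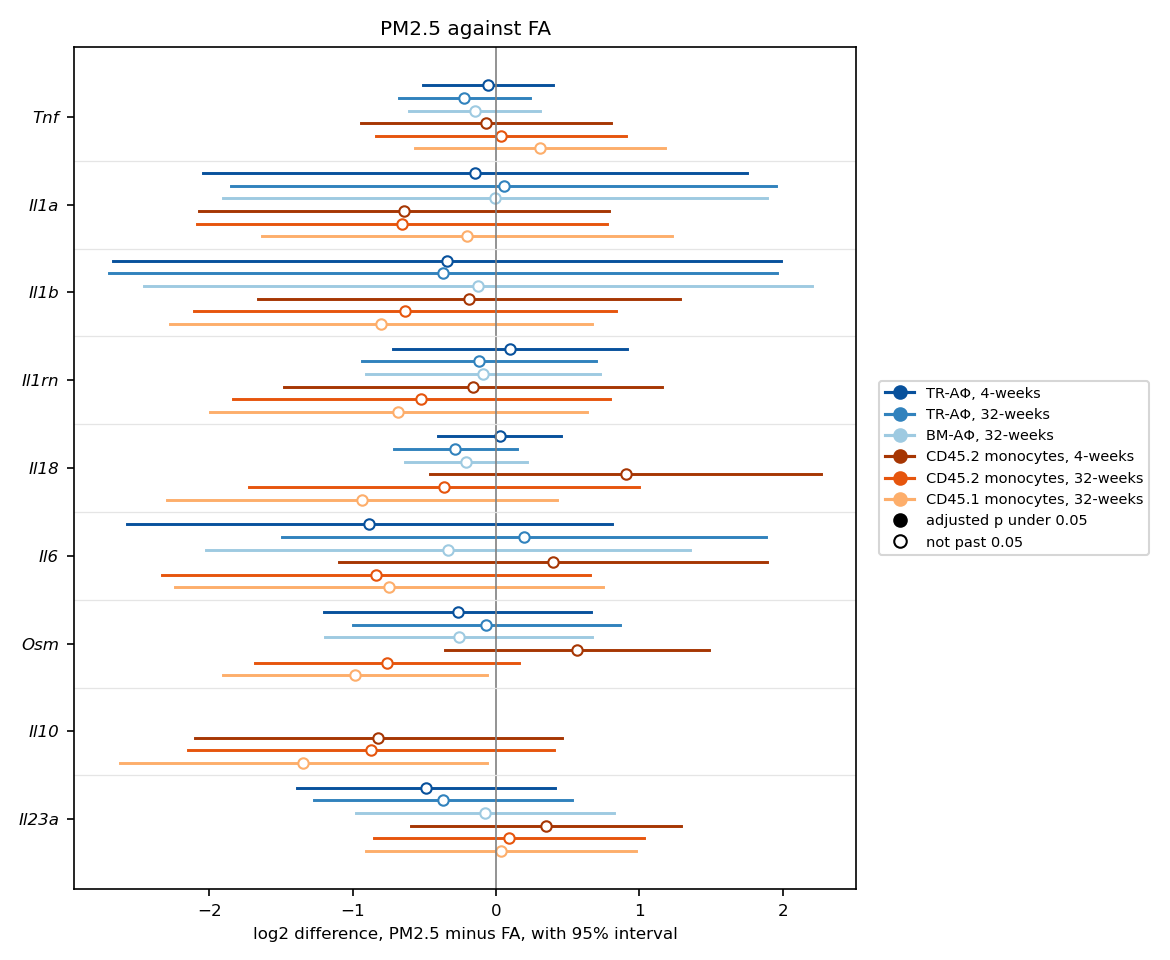
Log2 difference of PM2.5 against FA for each tested member in the 6 cell populations with its 95% interval. No point is filled, as 0 of 51 adjusted p were under 0.05, and the differences span -1.34 to 0.90.

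The genes whose levels ran most like those of a member were found by Pearson's correlation of log2(FPKM + 1) over the 18 libraries of a cell type, among genes whose mean FPKM reached 5. These points share groups and time, and the correlations are descriptions. In AΦ Tnf was closest to Cxcl10 (r = 0.964, rho = 0.686), Nlrp3 (0.961, 0.812) and Hmox1 (0.959, 0.810), and in monocytes to Nfkbiz (0.970, 0.920). Il1a in AΦ was closest to Plek (0.935, 0.936), Il1b to Ptafr (0.922, 0.917) and Il1rn to Bcl2a1b (0.945, 0.903). Il6 was closest to Nfkbid in AΦ (0.919, 0.924) and to Nlrp3 in monocytes (0.936, 0.860), and Il10 in monocytes to Atf4 (0.924, 0.922). Il18 in AΦ, which varied least, reached 0.797 with Sub1. Among the members themselves Il1a and Il1rn ran together in AΦ (0.938, 0.942) and Il1b and Il1rn in monocytes (0.924, 0.909), while Tnf and Osm had r = 0.062 in AΦ.

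Antisense genes lie over some members. Gm14023, which overlaps Il1a, reached 6.97 FPKM in TR-AΦ of 4-weeks and Il1bos, which overlaps Il1b, reached 3.0 FPKM in monocytes. The kit keeps strand, but whether strand was used in counting is not given in the sources used here, so reads of these pairs may be shared.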

How the data were processed

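RNA of sorted AΦ and monocytes was extracted with a Qiagen micro kit and made into SMART-Seq Stranded libraries (Takara). The authors trimmed the reads, aligned them to mm10 with STAR under the GENCODE annotation and deposited FPKM per gene from Cufflinks, with 0 table columns left unmapped to a sample here. Values were transformed to log2(FPKM + 1) and tested in R 4.3.3 by limma 3.58.1, with 1 mean per group and a variance trend, over genes whose mean reached 1 FPKM over the libraries of a model (AΦ, monocytes or both), and adjusted p were computed over all genes of a comparison at a threshold of 0.05. All 10 members were named. Genes of a list could be named if among the 3 called with the largest change per direction, and genes most like a member if among the 3 with the highest r. The members and lists were chosen with earlier results of these data known. On simulated data shaped like PM2.5 against FA in TR-AΦ of 4-weeks (12603 genes), 175 of 200 changed and 3 of 12403 unchanged genes were called. The changed genes had a mean log2(FPKM + 1) above 3 and changes of 1 to 4 on that scale, with normal noise. The 175 recovered genes pool these sizes, and recovery at a change of 1 alone is not given here. The PM2.5 differences of the members ran from -1.34 to 0.90. Recovery of changes under 1, or of genes with lower FPKM, was not measured. Alternatives were a pseudocount of 0.1, no minimum, 2 other scalings, only the libraries compared, a replicate block and leaving out each library. Averaging the exposures and leaving out the libraries numbered 2 were chosen after the data were seen. Whole-read depth is not recoverable from FPKM, so no counting error is given. Tables and figures were made with pandas 2.3.3 and matplotlib 3.10.9 in Python 3.11.15.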

Additional observations from a re-analysis of the deposited data

Results flagged for a closer look

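The change of Il23a between 4-weeks and 32-weeks differed between cell types by a test of that difference, with a log2 value of -1.71 for TR-AΦ against CD45.2 monocytes (SE 0.42, adjusted p = 0.0105 in limma). Il23a fell from a mean of 12.2 to 0.266 FPKM in TR-AΦ, with 4 of 6 libraries of 32-weeks listed at 0, and from 3.01 to 0.165 FPKM in monocytes. Il23a passed the minimum FPKM through its 4-weeks libraries alone and both cell types were near 0 at 32-weeks, so the value mostly restates the difference in level at 4-weeks. The call was lost with a pseudocount of 0.1 (-2.30, adjusted p = 0.216), which weighs the values near 0 more.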

How the results depend on the processing

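The counts of called members in the 3 comparisons of AΦ with monocytes, and the counts of 0 in every comparison of origin, of exposure and of their interactions, stayed within 1.5 times under every alternative run. The call of Tnf in TR-AΦ held without each library in turn. Counts here include Il10 and Il23a. Counts of members called between 4-weeks and 32-weeks moved. In TR-AΦ of FA mice the count went from 2 to 1 with only the libraries compared, 4 without the libraries numbered 2 and 5 with the exposures averaged, and from 2 to 5 with the exposures averaged in PM2.5 mice. In monocytes of FA mice it went from 3 to 1 with no minimum, with only the libraries compared and without the libraries numbered 2, and to 6 with the exposures averaged, and in PM2.5 mice from 3 to 0 with only the libraries compared, 0 without the libraries numbered 2 and 6 with the exposures averaged. Cell type by time went from 1 to 0 with a pseudocount of 0.1, 2 under quantile normalization and 2 without the libraries numbered 2. Leaving out 1 library gave 2 to 3 calls in TR-AΦ of FA mice, 1 to 3 and 1 to 2 in monocytes of FA and PM2.5 mice, and 1 to 2 for cell type by time. Il10 and Il23a in monocytes were the calls most often lost, and Tnf in PM2.5 monocytes was lost without library 2 of either time (adjusted p up to 0.0780). For these moves the cause was not tested, beyond the fewer libraries that some settings use.

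A replicate block gave 5 calls in TR-AΦ of FA mice, 5 in TR-AΦ of PM2.5 mice and 5 in monocytes of FA mice, and moved no other count by over 1.5 times. The numbers were not taken as pairing. In 0 of 66 pairs of groups were all 3 correlations of same-numbered libraries over 0.1 (median 0.0255), and 18 of 36 libraries were closest to one of their own number. Most of these pairs of groups differ in time or exposure and cannot share a mouse. The count therefore cannot settle whether a number marks the same mouse within a time and exposure. In some pairs all 3 same-number correlations exceeded every other one. Between BM-AΦ and TR-AΦ of FA mice at 32-weeks they were 0.062, 0.049 and 0.043, against at most 0.025. FA and PM2.5 monocytes of 4-weeks, which cannot share a mouse, had 0.128, 0.071 and 0.209, against at most 0.039. In others this failed, as in CD45.1 and CD45.2 monocytes of FA mice (0.040, -0.041 and 0.093, against up to 0.124). What the numbers mark was not tested. The block within time and exposure moved no count.

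Signs turned for members with small, uncalled differences. Il23a between CD45.2 cell types of 32-weeks was -0.14 with a pseudocount of 0.1 and -0.14 without the libraries numbered 2 (-0.17 to 0.15 without 1 library), and between CD45.1 cell types -0.053 to 0.22 without 1 library. Osm between CD45.2 cell types of 32-weeks was 0.017 with FPKM rescaled to a common sum (-0.46 to 0.081 without 1 library). Osm over time was 0.036 in TR-AΦ of PM2.5 mice without the libraries numbered 2, -0.97 to 0.086 in TR-AΦ of FA mice without 1 library, and in monocytes of FA mice 0.081 rescaled, 0.050 under quantile normalization and -0.65 to 0.29 without 1 library. Il18 over time was -0.16 to 0.10 in TR-AΦ of FA mice without 1 library, and in monocytes of PM2.5 mice 0.00088 rescaled, 0.55 with the exposures averaged and -0.41 to 0.49 without 1 library. Rescaling to a common sum moved the median of all genes by 0.19, 0.14 and 0.30 in the AΦ against monocyte comparisons and by 0.14 between times in FA monocytes. With 3 mice per group, 95% intervals of PM2.5 against FA extended 0.43 to 2.33 on either side, and depth is unknown.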
